A study of Rattus norvegicus with 6 samples.

Results

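The genes described here are 10 rows of the count table that encode laminin chains (Lama1, Lama2, Lama3, Lama4, Lama5, Lamb1, Lamb2 and Lamc1) and nidogens (Nid1 and Nid2). They were chosen by name, as chains of the basement membranes of the eye, and are 10 of 34335 genes in the table. RNA of whole retinas from wild-type (WT) BN rats, a pigmented strain, was sequenced after 2 µL of saline or of DMP was injected into the vitreous through the sclera, with 3 libraries per group. DMP is named in the labels as a cationic micelle, and was given at 10 mg/mL in water, so the vehicle differed between groups along with the micelle. All eyes received proparacaine drops before and levofloxacin gel after the injection, and neither the age of the animals nor the time to collection is stated in the labels. The libraries of both groups carry the numbers 30, 31 and 33, whose meaning is not stated, and the labels do not tie each to an animal of its own. The p-values therefore reflect the variation of these libraries alone, part of which could be technical.

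Laminins are cross-shaped proteins assembled in the cell from an alpha, a beta and a gamma chain, and their sheets are the first layer of a basement membrane. Nidogens are rod-shaped linkers that bind the gamma chain of laminin and connect it to collagen IV and perlecan. In the eye such sheets form the inner limiting membrane between Müller glial endfeet and vitreous, the inner and outer layers of Bruch's membrane under the pigment epithelium, the sleeves of retinal vessels, the lens capsule and the basement membranes of the ciliary body and iris.

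Library totals ran from 47842234 to 53255925 counts. Rod markers summed to between 60540 and 64355 CPM (counts scaled to a common library size) in the 6 libraries. DMP 30 stood apart on the leading principal component, at 27.3 against -12.1 to 5.12 for the other libraries. The 18S ribosomal RNA Rn18s, which selection of polyadenylated RNA is meant to remove, took 0.0121% to 0.0338% of counts in saline and 0.0439% to 0.159% in DMP. Its part in the differences described here was not tested.

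After DMP the nidogen Nid2 was at 0.40 of its saline level, the largest difference among the 10 genes, and the alpha chain Lama5 and the other nidogen Nid1 were lower by smaller amounts. The chains Lamb1, Lamc1, Lama1 and Lama3 had fold changes close to 1. Of the 10 genes, 0 passed the threshold (adjusted p under 0.05) in the quasi-likelihood test of edgeR over 18571 genes, where 0.0215% of all genes passed. Nid2 came next to the threshold, with the tenth-smallest p of all genes tested and an adjusted p of 0.0582. With DESeq2, 1 of the 10 passed, Nid2, where 0.495% of all genes passed, and with limma-voom 0 passed. At an unadjusted p under 0.05 in edgeR there were 4 genes lower in DMP (Nid2, Lama5, Nid1 and Lamb2) and 0 higher, where 2.56% of all genes were lower by that rule. The fitted difference was below 0 for all 10 genes, where it was below 0 for 50% of all genes tested. For Lamb1, Lamc1, Lama1 and Lama3 it was so near 0 that its sign changed in some fits. When a library was left out, 8 to 10 of the 10 were below 0. Their median log2 fold change was -0.19, and -0.17 without Nid2, beside -0.00011 over all genes. The genes share cells and libraries, so they do not count as separate observations of the treatment.

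**Figure D1:**
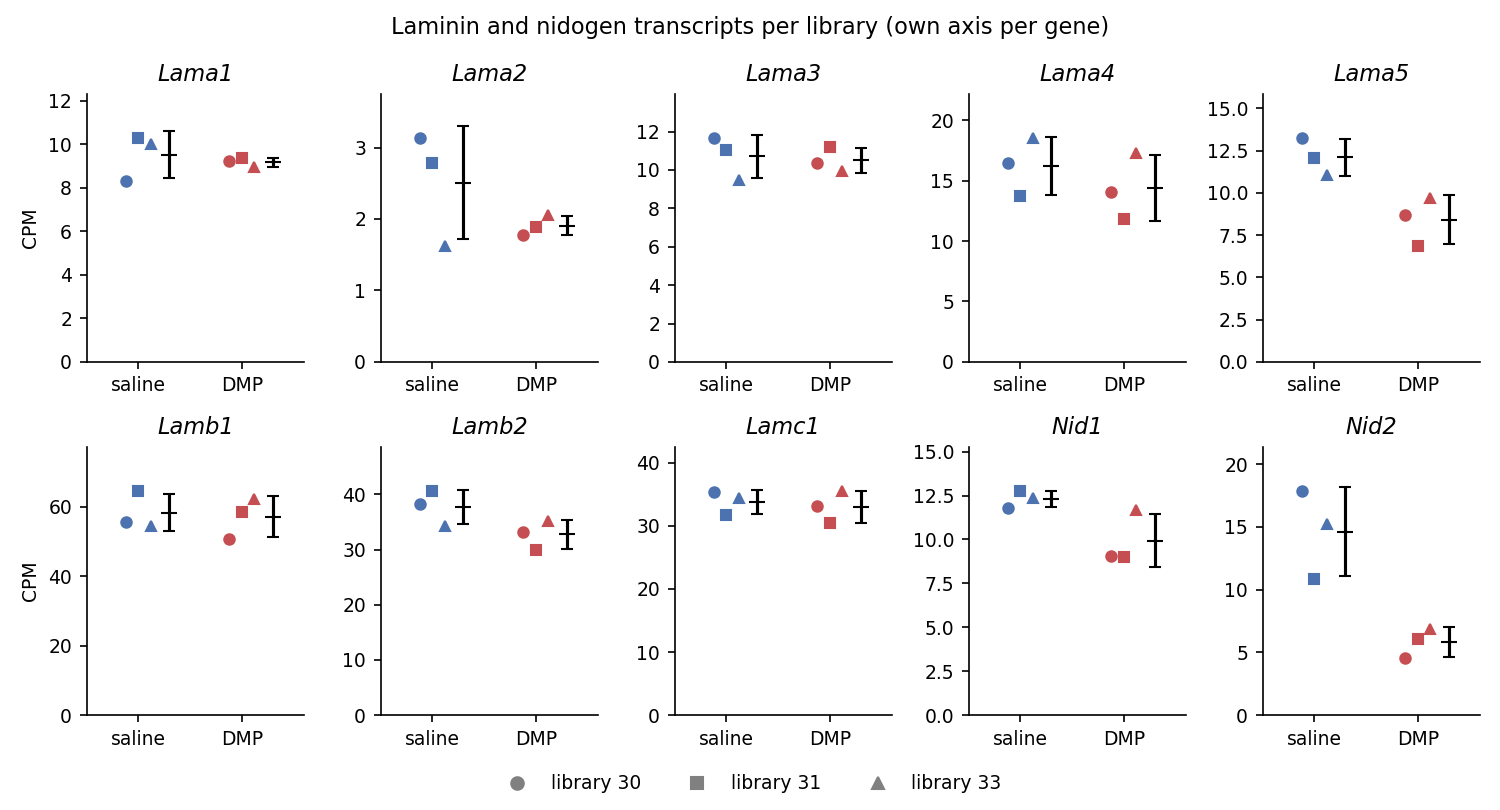
Transcript level (CPM, each gene on its own axis from 0) of the 8 laminin chains and 2 nidogens in each library, with symbols for the library number and a bar for the mean and SD of 3 libraries. Nid2 lies between 10.8 and 17.8 CPM in saline and between 4.56 and 6.90 CPM in DMP, while Lamb1, Lamc1, Lama1 and Lama3 show mixed groups.

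Nid2 lies on chromosome 15 from 4458082 to 4513808 (build mRatBN7.2, minus strand). It encodes the second nidogen, which can stand in for the first in many basement membranes of mice. It was at 17.8, 10.8 and 15.2 CPM in saline 30, 31 and 33 and at 4.56, 6.08 and 6.90 CPM in DMP 30, 31 and 33. Every DMP library lay below every saline library, DMP 30 was the lowest, and the lowest saline library (31) was still above the highest DMP library (33). The means were 14.6 ± 3.53 CPM in saline and 5.85 ± 1.18 CPM in DMP (mean ± SD, n = 3 per group). The log2 fold change was -1.32 (SE 0.195, 95% interval -1.75 to -0.89, edgeR Benjamini-Hochberg adjusted p = 0.0582). Among the 15302 genes with a mean of at least 1 CPM, 52 had a lower log2 fold change. In whole retinas, fewer cells of a type and less RNA per cell cannot be told apart.

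Whether Nid2 passed depended on the setting. Among the fits without the library number as a term, it passed with DESeq2 (adjusted p = 3.46e-09), when genes under a mean of 1 CPM were left out (edgeR adjusted p = 0.0435, where 0.0784% of all genes passed) and without DMP 33 (log2 fold change -1.46, edgeR adjusted p = 0.0169, where 0.427% passed). Over all alternatives the log2 fold change of Nid2 ran from -1.50 to -0.96 and its adjusted p from 3.46e-09 to 0.561, the latter in limma on FPKM with no filter. RefSeq (assembly GRCr8) lists 14 copies and pseudogenes of Nid2 elsewhere in the rat genome, so reads of Nid2 may be shared with them and its value is uncertain. Of these, 4 had a row in the count table and 2 had counts, Nid2l2 with 154 and Nid2-ps16 with 107 over the 6 libraries together, against 239 to 905 for Nid2 in each library.

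Nid1, on chromosome 17 from 86085046 to 86158277 (plus strand), encodes the first nidogen, the linker found in nearly all basement membranes. It was at 11.8, 12.7 and 12.4 CPM in saline 30, 31 and 33 and at 9.07, 9.03 and 11.7 CPM in DMP 30, 31 and 33. The groups did not overlap, but DMP 33 lay only just under the lowest saline library. The log2 fold change was -0.31 (SE 0.122, 95% interval -0.58 to -0.042, edgeR adjusted p = 0.902). The FPKM of Nid2 relative to Nid1, a ratio that does not depend on scaling between libraries, was 0.675, 0.38 and 0.549 in saline 30, 31 and 33, against 0.224, 0.301 and 0.264 in the DMP libraries. Every DMP ratio was below every saline ratio, with a difference of -0.99 on the log2 scale (exact permutation test, two-sided, p = 0.1, the smallest that 3 against 3 allows, 0.2 adjusted over 6 ratios).

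Lama5 encodes the alpha chain of many mature epithelial and vascular basement membranes, and lies on chromosome 3 from 167270296 to 167318370 (minus strand). It was at 13.2, 12.1 and 11.0 CPM in saline 30, 31 and 33 and at 8.67, 6.88 and 9.71 CPM in DMP 30, 31 and 33. All DMP libraries lay below all saline libraries, with DMP 31 the lowest. The log2 fold change was -0.52 (SE 0.139, 95% interval -0.83 to -0.22, edgeR adjusted p = 0.369), and with DESeq2 the adjusted p was 0.069. Nid2, Nid1 and Lama5 were the 3 of 10 genes whose groups did not overlap with DMP lower, and 0 did so with DMP higher, where 4.88% of all genes tested lay apart with DMP lower.

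**Figure D2:**
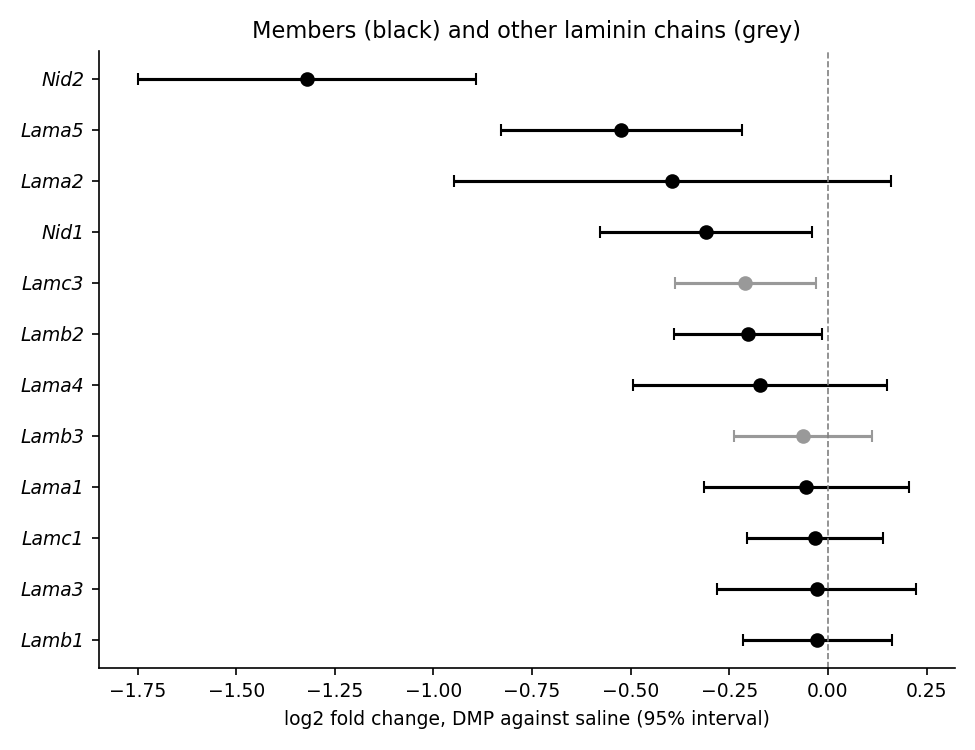
Log2 fold change of DMP against saline (x axis) with its 95% interval for the 10 laminin and nidogen genes in black and the chains Lamb3 and Lamc3 in grey, 6 libraries. The interval of Nid2 reaches from -1.75 to -0.89, those of Lama5, Nid1 and Lamb2 end below 0, and those of the other 6 genes cover 0.

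The promoters of Lama5 and of Lama1 are shown because these alpha chains differ in the data, Lama5 lower in every DMP library and Lama1 with mixed groups. Each is the 250 bases before the start of the gene in RefSeq on GRCr8, 5′ to 3′ on the strand of the gene, with GGGCGG or its reverse complement in capitals. That motif is the core of the GC box bound by Sp-family factors. The windows are chr3:187695975-187696224 (minus strand) for Lama5 and chr9:115139298-115139547 (plus strand) for Lama1.
Lama5: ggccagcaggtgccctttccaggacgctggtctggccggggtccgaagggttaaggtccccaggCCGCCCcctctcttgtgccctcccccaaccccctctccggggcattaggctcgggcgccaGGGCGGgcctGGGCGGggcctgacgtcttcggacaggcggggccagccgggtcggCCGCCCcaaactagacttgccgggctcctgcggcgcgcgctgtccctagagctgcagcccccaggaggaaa
Lama1: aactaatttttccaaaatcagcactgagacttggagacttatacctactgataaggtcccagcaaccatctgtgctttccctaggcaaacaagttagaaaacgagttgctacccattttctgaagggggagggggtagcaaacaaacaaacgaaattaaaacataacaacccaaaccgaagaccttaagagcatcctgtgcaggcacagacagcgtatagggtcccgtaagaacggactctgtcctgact
The window of Lama5 held 4 matches, 2 on each strand, and 72.8% G or C, and that of Lama1 held 0 matches and 44.8% G or C. Promoter windows were found for 8 of the 10 genes, Nid2 and Lamb2 being the others. Of the 8, 5 held GGGCGG on either strand (Lama2, Lama5, Lamb1, Lamc1 and Nid1), beside 30.5% of the 33469 promoter windows of that length. The Nid1 window lies inside the gene as RefSeq bounds it, so it may not be the promoter of every Nid1 transcript. The windows of Lamb1 and Lamc1, whose fold changes were close to 1, held 2 and 5 matches. TGANTCA, the letters bound by Fos and Jun factors, was found only in the window of Lama3, 3 times (6.34% of all windows). TATAAA was found only in that of Lama4 (12.9% of all windows). A match in letters is not a bound site.

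The other alpha chains showed overlapping groups. Lama1 (chromosome 9 from 107692770 to 107816847), the alpha chain of early basement membranes that the inner limiting membrane of mice depends on, was at 8.29, 10.3 and 10.0 CPM in saline and 9.21, 9.35 and 8.95 CPM in DMP. Its DMP libraries all lay inside the saline range, with a log2 fold change of -0.055 (95% interval -0.31 to 0.20). Lama2 (chromosome 1 from 17672675 to 18320641), the chain of muscle, nerve sheath and brain vessels, was the least counted of the 10, at 3.13, 2.78 and 1.62 CPM in saline and 1.78, 1.89 and 2.05 CPM in DMP. Saline 33 lay below every DMP library, and the interval was wide (-0.95 to 0.16 around -0.39). Lama3 (chromosome 18 from 3523168 to 3751722), an alpha chain of epithelial laminins, was at 11.7, 11.0 and 9.48 CPM in saline and 10.4, 11.2 and 9.93 CPM in DMP, a log2 fold change of -0.029 (95% interval -0.28 to 0.22). Lama4 (chromosome 20 from 42392268 to 42533347), the alpha chain of vessel walls, was at 16.4, 13.7 and 18.5 CPM in saline and 14.1, 11.8 and 17.3 CPM in DMP. In both groups library 31 was the lowest and library 33 the highest for Lama4, and the log2 fold change was -0.17 (95% interval -0.49 to 0.15).

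The beta and gamma chains, which pair with several alpha chains, differed little. Lamb1 (chromosome 6 from 47835492 to 47902585) was at 55.8, 64.4 and 54.6 CPM in saline and 50.8, 58.7 and 62.2 CPM in DMP, and Lamc1 (chromosome 13 from 65374372 to 65501492), the gamma chain that carries the nidogen-binding site, was at 35.3, 31.7 and 34.3 CPM in saline and 33.1, 30.4 and 35.4 CPM in DMP. Their groups overlapped, and their 95% intervals ran from -0.22 to 0.16 for Lamb1 and from -0.20 to 0.14 for Lamc1 on the log2 scale. Lamb2 (chromosome 8 from 109178367 to 109190552), the beta chain that retinal Müller cells deposit in the inner limiting membrane in mice, was at 38.3, 40.5 and 34.3 CPM in saline and 33.1, 29.9 and 35.2 CPM in DMP. DMP 33 lay above saline 33, and the log2 fold change was -0.20 (SE 0.0852, 95% interval -0.39 to -0.016, edgeR adjusted p = 0.992).

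**Figure D3:**
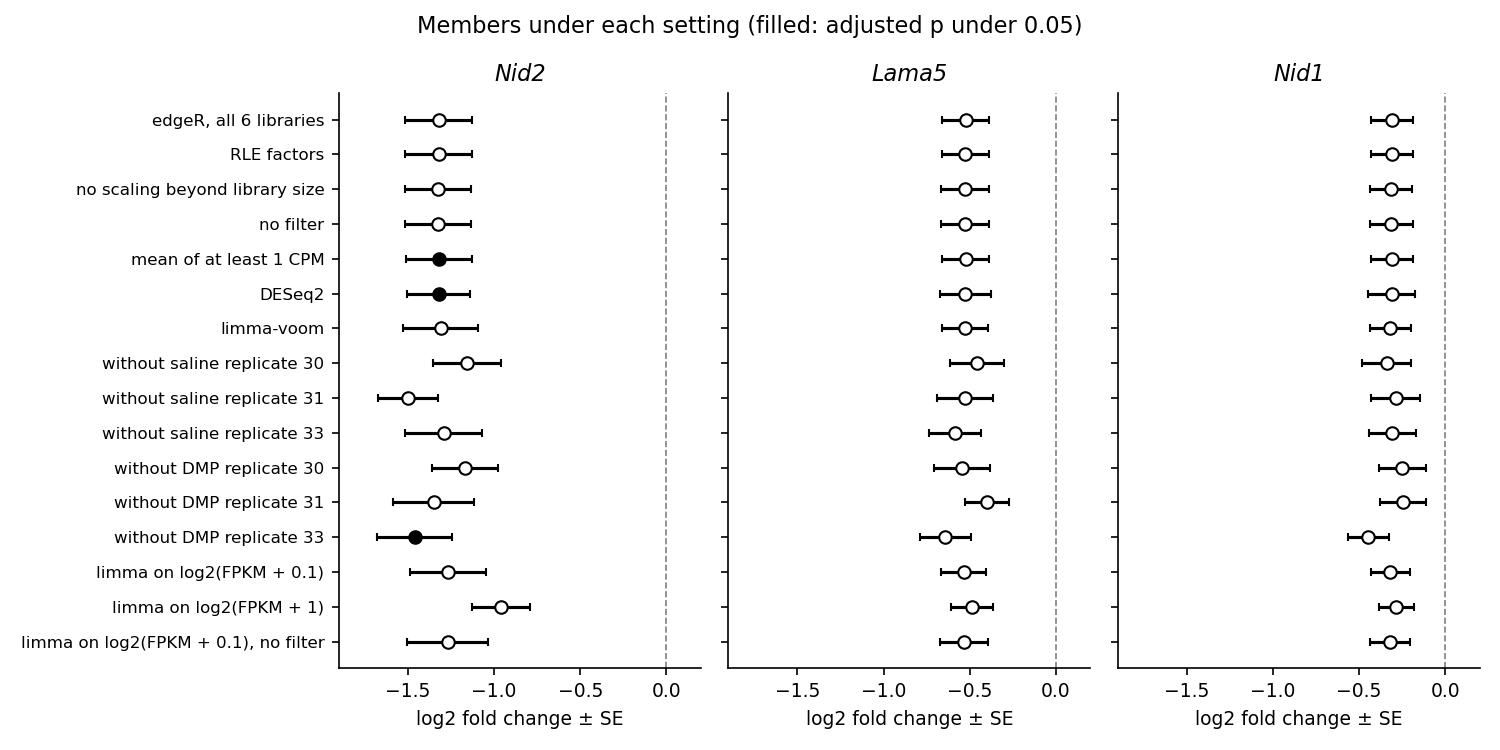
Log2 fold change ± SE (x axis) of Nid2, Lama5 and Nid1 under each setting that has no term for the library number (rows), filled where the adjusted p was under 0.05. Nid2 stays between -1.50 and -0.96 and is filled in 3 settings, and Lama5 and Nid1 are open in all settings shown.

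The share of each alpha chain in the sum of the 5 alpha chains was also compared, in FPKM and in CPM, since the gene lengths behind the FPKM, described after these shares, are in doubt and set the size of each share. The share of Lama5 was lower in every DMP library than in every saline library on both scales, by -0.21 on the log2 scale in FPKM and by -0.33 in CPM (exact permutation test, two-sided, p = 0.1 in each, the smallest possible, 0.2 adjusted over 6 ratios in FPKM). The share of Lama3 differed by 0.30 on the log2 scale in FPKM (exact permutation test, two-sided, p = 0.1, 0.2 adjusted). In CPM that difference was 0.18, with overlapping groups (exact permutation p = 0.4), so the separation of Lama3 depends on the lengths used. A share also depends on the other chains in the sum, and the level of Lama3 itself had a log2 fold change of -0.029.

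In the authors' FPKM, which divide by gene length, Lamc1 stood highest at 86.3 over the 6 libraries (range 78.6 to 92.5), above Lamb1 at 62.9 and Lamb2 at 53.4, whose ranges overlapped. Lama5 at 9.30 and Nid1 at 7.45 came next and overlapped each other. Of Lama1 at 3.52, Nid2 at 3.06, Lama4 at 2.44 and Lama3 at 2.18, neighbours in order overlapped, and Lama2 stood apart as the lowest at 0.462 (range 0.341 to 0.653). Setting the counts against the FPKM gives the length the authors' values imply, which was 0.386 kb for Lamc1, 0.658 kb for Lamb2 and 1.10 kb for Lama5 but 6.26 kb for Lama4. Laminin chains are all encoded by messages several kilobases long, so the order is given as that of the authors' values and not as an order of abundance. The length cancels from differences between groups within a gene, since the implied length of a gene was nearly constant over the libraries. Whether the counts cover the whole message of each gene was not tested.

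Among other laminin-related genes, 0 of 11 passed in edgeR in either direction (1 lower and 0 higher at an unadjusted p under 0.05), with a median log2 fold change of -0.066. By that unadjusted rule 2.56% of all genes tested were lower. The gene of smallest p was Lamc3, a gamma chain found in the retina, at 23.6, 21.4 and 20.5 CPM in saline and 19.3, 18.9 and 18.4 CPM in DMP. Its groups did not overlap, but the difference was small (log2 fold change -0.21, SE 0.0814, edgeR adjusted p = 0.887). Ntn1, the axon guidance protein netrin with a laminin-like head, was at 2.09 ± 0.568 CPM in saline and 1.78 ± 0.223 CPM in DMP (n = 3 per group).

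Genes for the other parts of the basement membrane, the collagen IV chains, perlecan, agrin, fibulins and related proteins, showed 0 of 17 past the threshold in edgeR. At an unadjusted p under 0.05, 6 were lower and 0 higher, where 2.56% of all genes were lower. The median log2 fold change was -0.13. Col4a6, a collagen IV chain of epithelial and smooth muscle basement membranes, was at 9.47, 6.58 and 8.23 CPM in saline and 3.34, 3.30 and 4.86 CPM in DMP. As for Nid2, saline 31 was the lowest saline library and DMP 33 the highest DMP library (log2 fold change -1.08, SE 0.191, edgeR adjusted p = 0.0969). Col4a5, its partner chain, named after its values were seen, was at 16.7, 13.3 and 18.1 CPM in saline and 9.32, 12.1 and 10.6 CPM in DMP (log2 fold change -0.58, edgeR adjusted p = 0.235). The main collagen IV chains Col4a1 and Col4a2, also named after their values were seen, were at 30.2 ± 1.48 and 41.4 ± 0.977 CPM in saline and 27.6 ± 2.96 and 38.1 ± 4.10 CPM in DMP. Fbln2, a fibulin that binds nidogen, was at 13.3, 10.4 and 10.6 CPM in saline and 2.75, 1.94 and 5.98 CPM in DMP, so that every DMP library was lower (log2 fold change -1.68, SE 0.320, edgeR adjusted p = 0.12). Fbln1, another fibulin of matrix fibres and basement membranes, named after its values were seen, was at 61.3, 44.4 and 65.1 CPM in saline and 2.06, 8.08 and 29.2 CPM in DMP. The DMP libraries were all lower but far apart from each other (log2 fold change -2.12, SE 0.603, edgeR adjusted p = 0.455). Col18a1, a collagen of vascular and epithelial basement membranes, had a log2 fold change of -0.58 (SE 0.129, edgeR adjusted p = 0.203).

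Receptors that anchor cells to laminin showed 0 of 15 past the threshold in edgeR, with 3 lower and 0 higher at an unadjusted p under 0.05 and a median of -0.10. For this and the next lists, 2.56% of all genes tested were lower at that unadjusted p. Bcam, the Lutheran glycoprotein and a receptor for the chain that Lama5 encodes, was at 16.6 ± 0.940 CPM in saline and 12.6 ± 1.30 CPM in DMP (n = 3 per group, log2 fold change -0.40, SE 0.101, edgeR adjusted p = 0.338). Utrn, which links dystroglycan to the cytoskeleton, was at 112.5 ± 4.83 and 102.1 ± 2.76 CPM, and the receptor phosphatase Ptprf at 113.1 ± 6.65 and 102.1 ± 7.02 CPM. Enzymes that build the laminin-binding sugar of dystroglycan showed 0 of 12 past the threshold (1 lower and 0 higher at an unadjusted p under 0.05, median -0.056), with Pomgnt2 at 20.5 ± 1.45 CPM in saline and 16.6 ± 1.95 CPM in DMP. Proteases able to cut basement membrane proteins showed 0 of 11 past the threshold (1 lower and 1 higher at an unadjusted p under 0.05, median -0.13). The gelatinase Mmp2 was at 3.86 ± 0.239 CPM in saline and 2.80 ± 0.615 CPM in DMP, and the lysosomal protease Ctss, abundant in microglia, at 31.8 ± 4.69 and 48.2 ± 4.63 CPM (edgeR adjusted p = 0.0969).

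**Figure D4:**
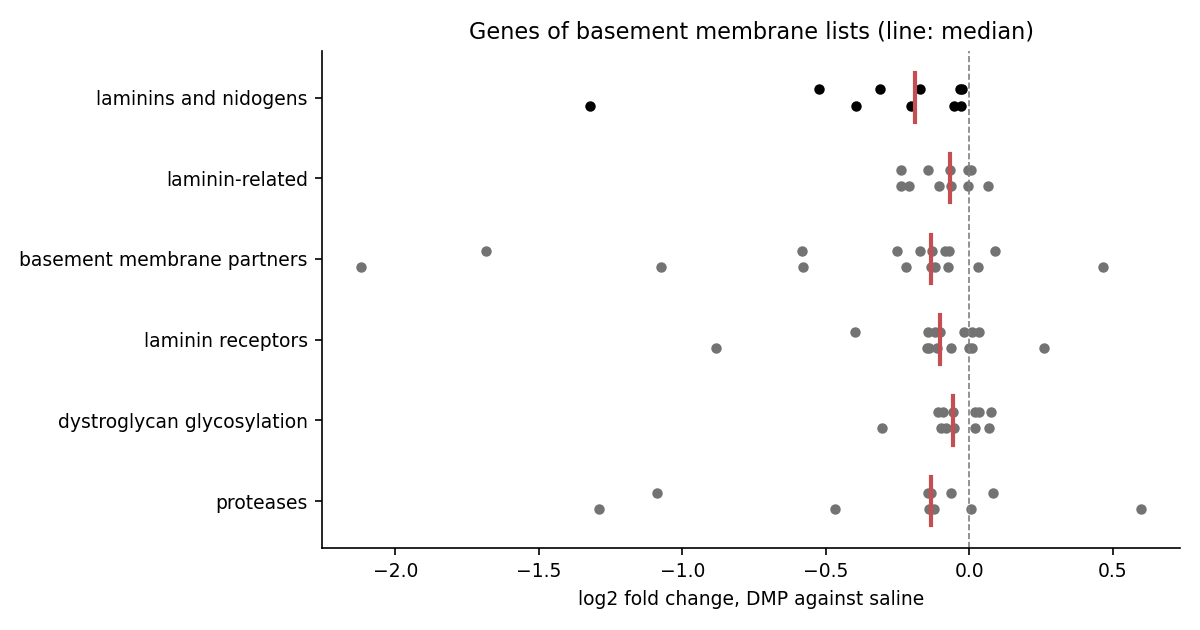
Log2 fold change of DMP against saline (x axis) for each tested gene of the laminin and nidogen set and of 5 related lists (rows), with the median of each list as a line. The medians lie between -0.19 and -0.056, and Nid2 at -1.32 lies apart from the other laminins and nidogens, as Fbln1 at -2.12, Fbln2 at -1.68 and Col4a6 at -1.08 do from most basement membrane partners.

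Summed markers of some tissues next to the retina that also make basement membrane were lower in the same libraries as Nid2. The ciliary epithelium list (5 of 5 genes tested) summed to 137.4 to 174.9 CPM in saline and 89.5 to 116.6 CPM in DMP, and the groups did not overlap. All 5 of its genes were below 0, among them Aqp1 at -0.0042, where 50% of all genes tested were below 0. In edgeR 1 of them passed the threshold, Mfrp (-1.78 on the log2 scale, adjusted p = 0.0307), where 0.0215% of all genes passed. The call for Mfrp was lost without saline 33 (edgeR adjusted p = 0.0701), without DMP 31 (0.13), with limma-voom (0.0875) and in the limma fits on FPKM (0.274 to 0.414), in a range over alternatives of 5.34e-14 (DESeq2) to 0.414. Optc, the opticin that ciliary epithelium secretes into the vitreous, named after its values were seen, was at 47.0, 33.9 and 50.8 CPM in saline 30, 31 and 33 and 1.36, 7.54 and 20.0 CPM in DMP 30, 31 and 33. Zic1, a transcription factor also named after its values were seen, was at 9.90, 7.72 and 9.71 CPM in saline and 4.34, 3.87 and 6.10 CPM in DMP. For Optc, as for Nid2, saline 31 was the lowest saline library and the DMP libraries stood in the order 30, 31, 33. No other gene of the list shared that whole pattern. Mfrp was at 18.0, 9.51 and 11.0 CPM in saline 30, 31 and 33 and at 3.93, 3.56 and 3.69 CPM in DMP 30, 31 and 33. DMP 30 was thus the highest DMP library for Mfrp, and DMP 31 was the lowest for Zic1. Fibroblast markers (9 of 10 tested, Fap at 0 in all libraries) summed to 117.9 to 128.03 CPM in saline and 70.9 to 96.2 CPM in DMP, with 8 of 9 below 0. Of the 9, 3 lay apart with DMP lower, where 4.88% of all genes tested did so, and 1 with DMP higher, where 4.42% did so. The gene with DMP higher was Postn, named after its values were seen, at 28.0 ± 1.78 CPM in saline and 31.9 ± 1.31 CPM in DMP. The other tested genes of the fibroblast list overlapped between groups. A sum is set by its most abundant genes, so the separation of the fibroblast sum may rest on the 3 that were lower and does not speak for the whole list. The part of these tissues in the Nid2, Lama5 and Nid1 differences was not tested.

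The summed markers of the other cells overlapped between groups, apart from microglia, but a sum is set by its most abundant genes. Lens markers (11 of 13 tested, 9 below 0) summed to 20.2 to 41.2 CPM in saline and 6.40 to 39.2 CPM in DMP, and pigment epithelium markers (12 of 12 tested, 7 below 0) to 126.2 to 199.5 CPM in saline and 112.1 to 163.3 CPM in DMP. Endothelial markers (12 of 12 tested, 2 below 0) summed to 616.4 to 642.4 and 605.0 to 689.1 CPM, and mural cell markers (10 of 10 tested, 7 below 0) to 91.04 to 106.3 and 86.1 to 96.97 CPM. Müller glia markers (10 of 10 tested, 7 below 0) summed to 4819 to 5041 CPM in saline and 4686 to 4864 CPM in DMP, and astrocyte markers (7 of 7 tested, 1 below 0) to 154.2 to 183.01 and 177.4 to 188.02 CPM. Single genes in these lists lay apart with DMP lower: 4 of 11 in the lens list, all gamma crystallins, near-identical genes whose counts are uncertain (Crygd at -2.13 on the log2 scale), 3 of 12 in the pigment epithelium list (Tyr at -3.13, Tyrp1 at -1.69 and, named after its values were seen, Mlana at -1.54) and 1 of 10 in the Müller glia list (Vim at -0.38, edgeR adjusted p = 0.0582). With DMP higher it was 1 of 7 in the astrocyte list and 1 of 12 in the pigment epithelium list. Of all genes tested, 4.88% lay apart with DMP lower and 4.42% with DMP higher. The part of these lists in the Nid2 difference was not tested. Microglial markers (10 of 10 tested, all above 0) summed to 62.1 to 86.7 CPM in saline and 90.9 to 136.3 CPM in DMP, without overlap.

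**Figure D5:**
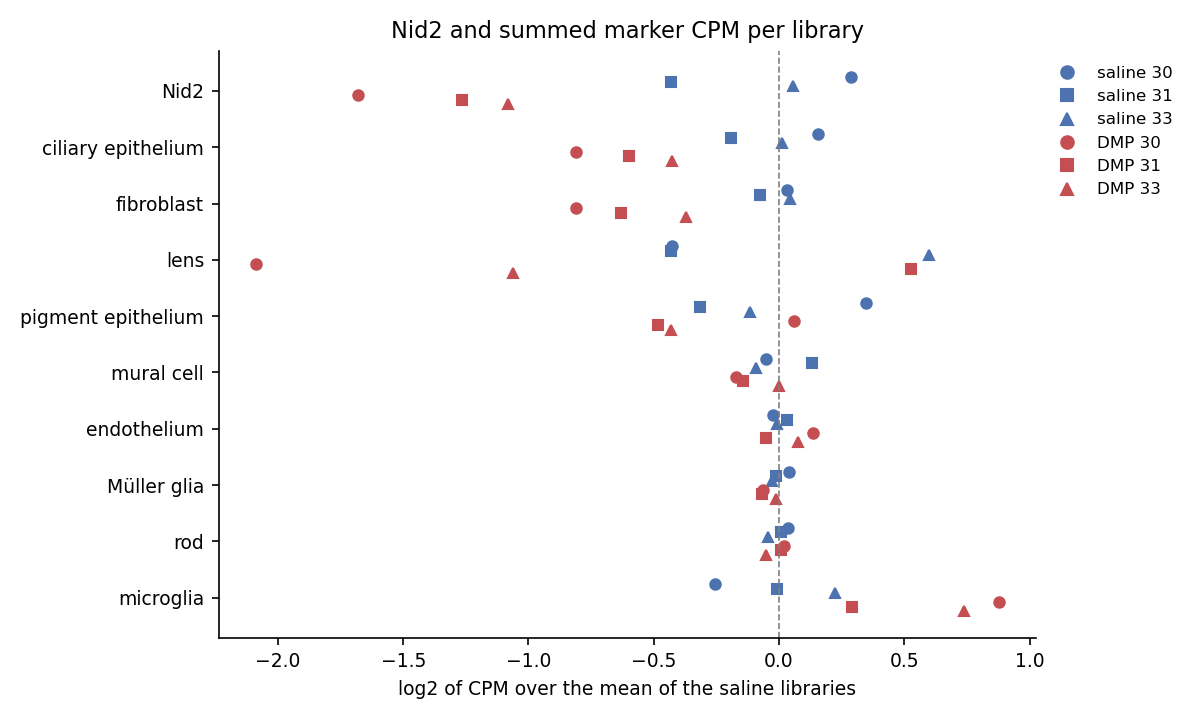
Level of Nid2 and summed level of each marker list in every library, as log2 of CPM over the mean of the 3 saline libraries (x axis), coloured by group with a symbol for the library number. Nid2, the ciliary epithelium sum and the fibroblast sum lie lower in all 3 DMP libraries, the microglia sum lies higher, and the sums of the other lists overlap between groups.

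The genes whose levels followed each of the 3 separated members most closely were ranked by the root mean square difference of centred log2(CPM + 0.5) over the 6 libraries, among genes with a mean of at least 1 CPM. For Nid2 they were Iqgap2, a scaffold protein of the actin cytoskeleton (0.124), the folate receptor Folr1 (0.17) and Sned1, a matrix protein that carries a nidogen-like domain (0.176). Sned1 was at 110.1, 72.4 and 116.7 CPM in saline and 31.3, 38.7 and 61.04 CPM in DMP (edgeR adjusted p = 0.119). As for Nid2, saline 31 was the lowest of its group and DMP 30 the lowest of all. For Lama5 the closest were the peptidase gene Cpq (0.0752), the phosphatase regulator Ppp1r1b (0.0946) and the uncharacterized LOC120099857 (0.0947). For Nid1 they were Cmtm8 (0.0497), the phospholipid transporter Atp10d (0.0547) and Colgalt2, an enzyme that adds galactose to collagen (0.0585). These are descriptions of 6 libraries that include the group difference.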

How the data were processed

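Polyadenylated RNA of rat retinas was sequenced from strand-marked libraries, per the labels' protocols. The authors deposited a table of whole-number values treated as estimated counts (expected counts), because low values piled up at single numbers, and FPKM, by the authors' own computation, for 24744 genes. The repeated counts differed for 0 genes. Per the submitters' processing notes, the tools included cutadapt 1.9 and FastQC and the build was mRatBN7.2. Aligner, counter and use of strand in counting: not given in the sources used here. No molecular identifiers are mentioned, so PCR copies could not be told apart.

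From the counts, genes were kept with the edgeR default filter (minimum count 10, total 15), which left 18571 of 34335. TMM factors gave CPM. The comparison used edgeR 4.0.16 (R 4.3.3), a quasi-likelihood F-test, two-sided, with a model of group alone, and Benjamini-Hochberg adjustment over the whole table at 0.05. Each standard error is |log2 fold change| / √F, from which 95% intervals follow. The test was also run on simulated counts for 18276 genes, some given a change of known size. Of these, it recovered 67.2% of 67 at 1.5-fold, 85.1% of 67 at 2-fold and 97% of 66 at 3-fold, with 9 false calls. In the measured libraries 4 genes passed. Nid2, 2.50-fold lower in DMP (adjusted p = 0.0582), and Fbln1, at -2.12 on the log2 scale (adjusted p = 0.455), did not. The simulation set the variation between libraries from the level of a gene alone, so that genes of equal level varied alike, which measured genes need not do. The rates describe the simulation, and whether they hold for the measured libraries was not tested. Alternatives were DESeq2 1.42.0, limma-voom (limma 3.58.1), limma on log2(FPKM + 0.1) or log2(FPKM + 1), other factors and filters, a replicate block and leaving out each library. Ratios between genes used exact permutation tests over libraries. Promoter sequences are from RefSeq (GRCr8). Chromosome names came from the RefSeq gene table.

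The members, gene lists and tests were chosen with earlier results of these data known. The naming rule took all 10 members, in each related list the genes past the threshold or otherwise at most 3 of smallest p with a mean of at least 1 CPM, and the 3 genes most like each member whose groups did not overlap. Genes outside the rule are marked, and 1 gene that the rule names is not reported here.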

Additional observations from a re-analysis of the deposited data

How the results depend on the processing

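The 10 genes under 16 alternatives gave 160 log2 fold changes, of which 154 kept their sign. The others were 6 sign changes when a library was left out, all in genes near 0, with ranges of -0.15 to 0.00038 for Lama1, -0.11 to 0.033 for Lama3, -0.094 to 0.052 for Lamb1 and -0.089 to 0.022 for Lamc1, and their cause was not tested. Leaving out each library gave -1.50 to -1.16 for Nid2, -0.64 to -0.40 for Lama5 and -0.45 to -0.25 for Nid1. The median over the 10 genes was -0.19 and ran from -0.29 (without DMP 33) to -0.11. The number of the 10 past the threshold, 0 with all libraries in edgeR, was 1 (Nid2) with a mean of at least 1 CPM, with DESeq2 and with the replicate block (adjusted p = 0.0426), and 0 to 1 when a library was left out, 1 without DMP 33. Over all genes 4 passed, and 12 did so with a mean of at least 1 CPM, 92 with DESeq2, 45 with the replicate block, 1 with limma on log2(FPKM + 0.1), 0 with limma on log2(FPKM + 1) (984 at an unadjusted p under 0.05) and 0 to 81 when a library was left out (0 without DMP 31, 2 without saline 33, 9 without DMP 30, 81 without DMP 33). Over all related and marker lists 1 gene passed, and 2 did so with a mean of at least 1 CPM, 11 with DESeq2, 10 with the replicate block, 0 with limma-voom, 0 in each of the 3 fits on FPKM and 0 to 12 when a library was left out. The stricter filter tested fewer genes, and otherwise the cause of these changes was not tested. The numbers 30, 31 and 33 are not shown to pair the libraries. Deviations from group means correlated by 0.147, 0.0583 and 0.0942 across genes for the same-numbered pairs, against -0.180 to 0.122 for the crossed pairs. Saline 30 and saline 31 correlated best with the DMP library of their own number, and saline 33 with DMP 31 (0.122). These values do not settle whether the libraries are paired. Within the replicate block the log2 ratio of Nid2 to Nid1 differed by -0.99. Ratios ranged, when a library was left out, from -1.22 to -0.81 for Nid2 to Nid1, -0.26 to -0.15 for the Lama5 share and -0.28 to 0.14 for the Lama2 share, which changed sign. The order of FPKM levels was the same in all alternatives tried, which rescaled or left out libraries and did not replace the gene lengths in doubt. In CPM, which uses no length, Lamb1 stood above Lamc1, with saline means of 58.3 and 33.8. The member with the fewest counts was Lama2, with 84 to 159 per library.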
